A study of Mus musculus with 12 samples.

Results

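The chemokine receptors Ccr1, Ccr2, Ccr6, Ccr7, Ccr9, Cxcr3, Cxcr4, Cxcr5 and Cx3cr1 were followed in mouse B-cell progenitors after forced expression of EBF1 or PAX5. All 18 probe sets to which the platform annotation gave 1 of these 9 symbols were taken, out of 18193 genes with a named probe set on the arrays. The C57BL/6 mouse cells were Ebf1-/- pre-pro-B cells, progenitors that lack the transcription factor EBF1 and stall before the pro-B stage. They grew on OP9 cells, a stromal feeder line, in medium with 4% serum, SCF and Flt3L at 10 ng/ml each and IL-7 at 5 ng/ml, with β-mercaptoethanol, penicillin and streptomycin. Every group therefore shared the Ebf1 deletion, the feeder cells and these cytokines. The 4 groups of 3 Affymetrix arrays differed in the retrovirus: the MigR1 control with GFP alone (first set), Mig-EBF1 (first set), MigR1 again (second set) and Mig-PAX5 (second set). GFP-positive cells were sorted after 2 days. Expression of the factors is forced by the virus, the control virus carries GFP only, and no label ties a replicate to its own culture or animal. P-values therefore measure the spread between these samples, which may be technical.

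Chemokine receptors are G protein-coupled receptors that steer cells along gradients of small secreted proteins, the chemokines, mainly through inhibitory G proteins. In B lymphopoiesis they mark where a cell can go: Cxcr4 and its ligand Cxcl12 hold progenitors in the bone marrow, Ccr9 and Ccr7 guide early progenitors to the thymus, and Cxcr5, Ccr7 and Ccr6 place mature B cells in lymphoid organs. Ccr1, Ccr2 and Cx3cr1 are best known from monocytes and macrophages, and Cxcr3 from activated T and natural killer cells.

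The arrays gave 1 linear intensity per probe set, with no unit, and a level is compared here within a probe set. Exceptions are the choice of the brightest probe sets and genes and the marker sums. A sum adds the brightest probe set of each gene, so the brightest genes weigh most in it. Array medians ran from 55.1 to 60.6 in the first set and from 65.3 to 68.9 in the second. Precision is set by how few arrays there are. Same-numbered controls of both sets lay only a robust SD of 0.0392 to 0.0942 apart on the log2 scale, against 0.287 to 0.374 for other control pairs across sets, and PAX5 arrays 2 and 3 lay 0.0774 apart. Such arrays were counted as 1 sample, which left 3 control, 3 EBF1 and 2 PAX5 samples. EBF1 array 3 stood apart, with a summed intensity of 12151 over 12 stromal markers against 2703 and 874 on the other EBF1 arrays, and with 12986 over 10 early B-lineage markers against 28990 and 20645. The delivered Pax5 transcript (1421765_at) read 1849, 891 and 932 in PAX5 arrays and 12.8, 8.97 and 7.98 in their controls. The 5 Ebf1 probe sets changed by -0.31 to 0.02 with EBF1, and since the deleted part and the probes' positions were not used here, they check neither the deletion nor the virus. Of 10 measured early B-lineage genes, Cd79a, Cd79b, Igll1, Ms4a1 and Vpreb1 rose with EBF1, by 3.56 to 7.15 on the log2 scale used below. Igll1 rose on 1420176_x_at, and its other probe set, 1420177_at, changed by 0.23 (limma adjusted p = 0.61). With the replicate number as a block and each set fitted alone, Cd79a (3.56, limma adjusted p = 0.22) and Cd79b (5.61, adjusted p = 0.088) lost their calls, and Cd79a was lost in 6 of 20 alternatives. With PAX5, Blnk rose by 5.84, and Pax5 and Cd22 each rose on 1 of 2 probe sets, by 5.67 and 2.36. Their other probe sets changed by -0.14 (Pax5, 1454401_at) and 0.32 (Cd22, 1419768_at, limma adjusted p = 0.83). In bulk RNA, fewer cells of a type and less RNA per cell cannot be told apart.

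PAX5-transduced cells had far more transcript of several receptors than control cells. Ccr2 rose on all 4 of its probe sets, Ccr1 on 1 of 2 and Ccr6 on its single probe set, and none of the 18 was called lower. The 6 calls had a limma adjusted p under 0.05 over all 45037 probe sets, of which 0.464% were called higher and 0.0511% lower with PAX5. The median change over the 18 probe sets was 0.66 on the log2(intensity + 16) scale, beside -0.01 over all probe sets. In 9 probe sets of 5 genes (Ccr1, Ccr2, Ccr6, Ccr7 and Cxcr4) all PAX5 arrays lay above all control arrays of the second set, as did 8.14% of all probe sets, and in 2 probe sets, of Ccr9 and Cxcr5, all lay below (8.77%). All log2 changes given here are on that scale, which understates changes of dim probe sets.

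**Figure D1:**
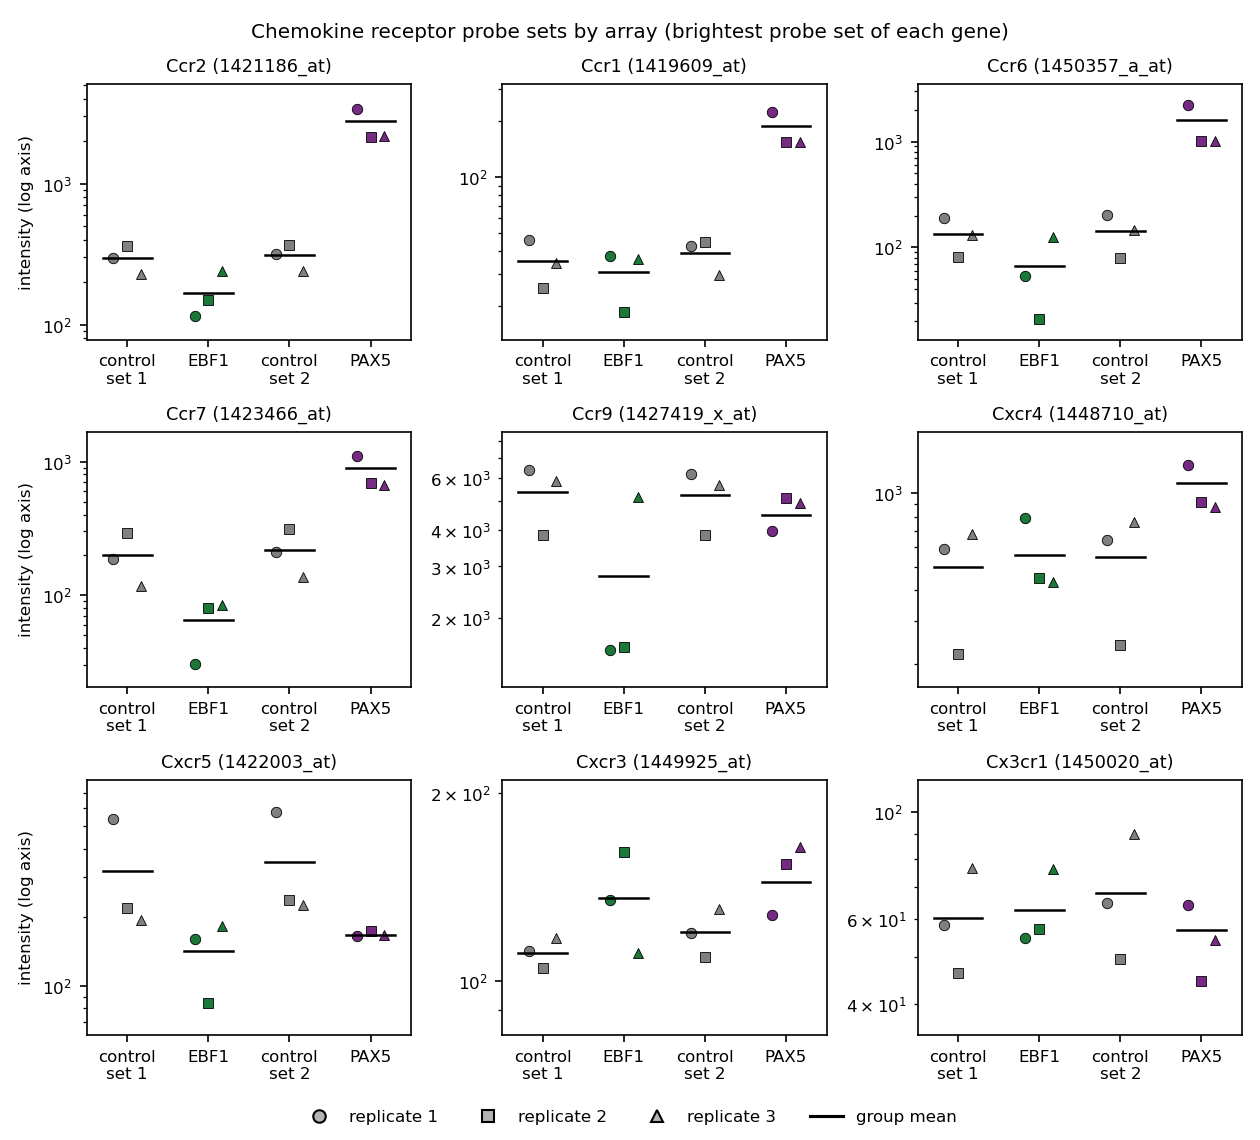
Intensity (log axis) of 1 probe set per receptor, the one with the highest mean log2 level, on each array of the 4 groups; symbols mark the replicate number and lines the mean over counted samples. The PAX5 arrays of Ccr2 read 2129 to 3406, above all of their controls, and those of Ccr9 overlap their controls.

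Ccr2 is the receptor for Ccl2 and Ccl7 through which monocytes leave the marrow. On 1421186_at its intensity was 318, 369.5 and 241 in the controls of the second set and 3406, 2129 and 2177 with PAX5. All PAX5 arrays stood several-fold above all controls, with array 1 highest. The change was 3.08 (SE 0.31, 95% interval 2.38 to 3.79, limma adjusted p = 0.0039).

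The remaining Ccr2 probe sets gave the same direction. On 1421187_at the change was 3.54 (SE 0.28, adjusted p = 0.001), on 1421188_at 2.91 (SE 0.44, adjusted p = 0.03) and on 1460067_at 2.56 (SE 0.31, adjusted p = 0.01). The control arrays of 1421188_at read 1.3 log2 units higher in the second set than in the first, although they appear to hold the same RNA, so its levels cannot be set side by side across sets. With PAX5 array 1 left out, 1421187_at still passed (3.11, adjusted p = 0.011), and 1421186_at (2.76, adjusted p = 0.075), 1460067_at (adjusted p = 0.14) and 1421188_at (adjusted p = 0.41) did not. The call on 1421187_at held in all 17 alternatives and that on 1421186_at in 17 of 18, while 1460067_at was lost in 4 of 17 and 1421188_at in 7 of 17, among them removals of control samples.

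Ccr1 binds Ccl3, Ccl5 and several other inflammatory chemokines. On 1419609_at it read 42.4, 44.8 and 29.5 in the second-set controls and 223, 155 and 155 with PAX5, so a dim signal moved clear of the control range. The change was 1.89 (SE 0.23, 95% interval 1.37 to 2.42, limma adjusted p = 0.011). Its other probe set, 1419610_at, read 9.52 to 14.6 in controls and 32 to 53.2 with PAX5, a change of 1.10 (SE 0.21) that missed the threshold (adjusted p = 0.082). The call on 1419609_at was lost in 3 of 18 alternative analyses: with a pseudocount of 1, without control 3 and without PAX5 array 1 (1.65, adjusted p = 0.17).

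Ccr6, the receptor for Ccl20, is carried by mature B cells, some dendritic cells and T cells. It read 202, 79.9 and 146 in the second-set controls and 2193, 1016 and 1002 with PAX5. The lowest PAX5 array was several times the highest control, and array 1 read highest in both of these groups. The change was 3.33 (SE 0.56, 95% interval 2.06 to 4.59), close to the threshold at a limma adjusted p of 0.048, and the call was lost in 8 of 19 alternatives, among them each removal of a control sample and the removal of PAX5 array 1 (2.77, adjusted p = 0.55).

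Ccr7 and Cxcr4 also read higher with PAX5 on every array but did not pass. Ccr7, which answers Ccl19 and Ccl21 and draws lymphocytes to lymph nodes, read 209, 311 and 136 in the second-set controls and 1109, 693 and 667 with PAX5 (1.99, SE 0.42, limma adjusted p = 0.12). It passed only when all 12 arrays were counted separately (adjusted p = 0.039). Cxcr4, the Cxcl12 receptor, read 640.3, 239 and 763 in those controls and 1295, 922 and 872 with PAX5. Its controls spread over a wider range than its PAX5 arrays, and the change was 1.11 (SE 0.46, 95% interval 0.07 to 2.15, adjusted p = 0.55).

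The stretch upstream of the start site is shown for Ccr1 and Ccr6, which rose with PAX5, and for Ccr9, which did not, since short words known from B-cell and myeloid factors can be read in it. The sequences are RefSeq's for the build GRCm38.p6, and 7 of the 9 receptors had an entry, with 8 windows of 300 bases (250 before to 50 after a start). Capitals mark GAGGAA, read by Ets factors such as PU.1, and TGTGGT, read by Runx factors, on either strand (TTCCTC and ACCACA are their reverse complements). In the full windows, GAGGAA lay in those of Ccr1, Ccr6 and Cxcr3, and TGTGGT in those of Ccr1, Ccr6, Cxcr3 and Cx3cr1. Cxcr3 and Cx3cr1 were not called with PAX5. Ccr2, which was called higher with PAX5 on all of its probe sets, had neither word in a window. The lines give Ccr1 at chr9:123968693-123968942 on the minus strand, Ccr6 at chr17:8235793-8236040 and Ccr9 at chr9:123766961-123767210 on the plus strand, each 5′ to 3′.
Ccr1: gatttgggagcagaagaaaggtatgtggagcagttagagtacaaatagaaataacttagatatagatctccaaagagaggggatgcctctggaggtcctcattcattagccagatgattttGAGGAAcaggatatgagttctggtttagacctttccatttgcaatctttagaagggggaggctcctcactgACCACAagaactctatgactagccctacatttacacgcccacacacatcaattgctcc
Ccr6: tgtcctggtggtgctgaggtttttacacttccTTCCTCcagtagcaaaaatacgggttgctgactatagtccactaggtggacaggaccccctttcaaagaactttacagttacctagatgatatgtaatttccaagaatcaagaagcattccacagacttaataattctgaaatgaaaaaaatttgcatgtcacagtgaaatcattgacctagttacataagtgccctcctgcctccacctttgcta
Ccr9: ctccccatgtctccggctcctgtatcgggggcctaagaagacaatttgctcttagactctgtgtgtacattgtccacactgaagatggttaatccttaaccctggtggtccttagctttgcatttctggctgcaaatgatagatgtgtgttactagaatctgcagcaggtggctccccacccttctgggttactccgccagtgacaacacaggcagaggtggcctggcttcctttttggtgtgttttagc
GAGGAA stood in 3 of the 8 receptor windows (28.3% of 32851 windows of all genes) and TGTGGT in 4 (16.8%). The EBF1 core CCCNNGGG (13.7%) and the PAX5 half-words GCGTGAC (2.09%) and GCGTAAC (0.609%) were in 0 of the 8, on either strand. No match overlapped a match of another word. These counts describe the letters of the windows and say nothing of binding.

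With EBF1 most receptors read lower than in control cells, but no probe set passed. The call count was 0 of 18, beside 0.0977% of all probe sets called in either direction. At an unadjusted p under 0.05, 9 probe sets of 4 genes (Ccr2, Ccr7, Ccr9 and Cxcr5) were lower and 0 higher, against 4.44% and 5.53% of all probe sets. The median over the 18 was -0.72, beside 0.02 over all probe sets. In 3 probe sets, of Ccr2, Ccr7 and Cxcr5, all EBF1 arrays lay below all first-set controls, as in 6.14% of all probe sets.

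**Figure D2:**
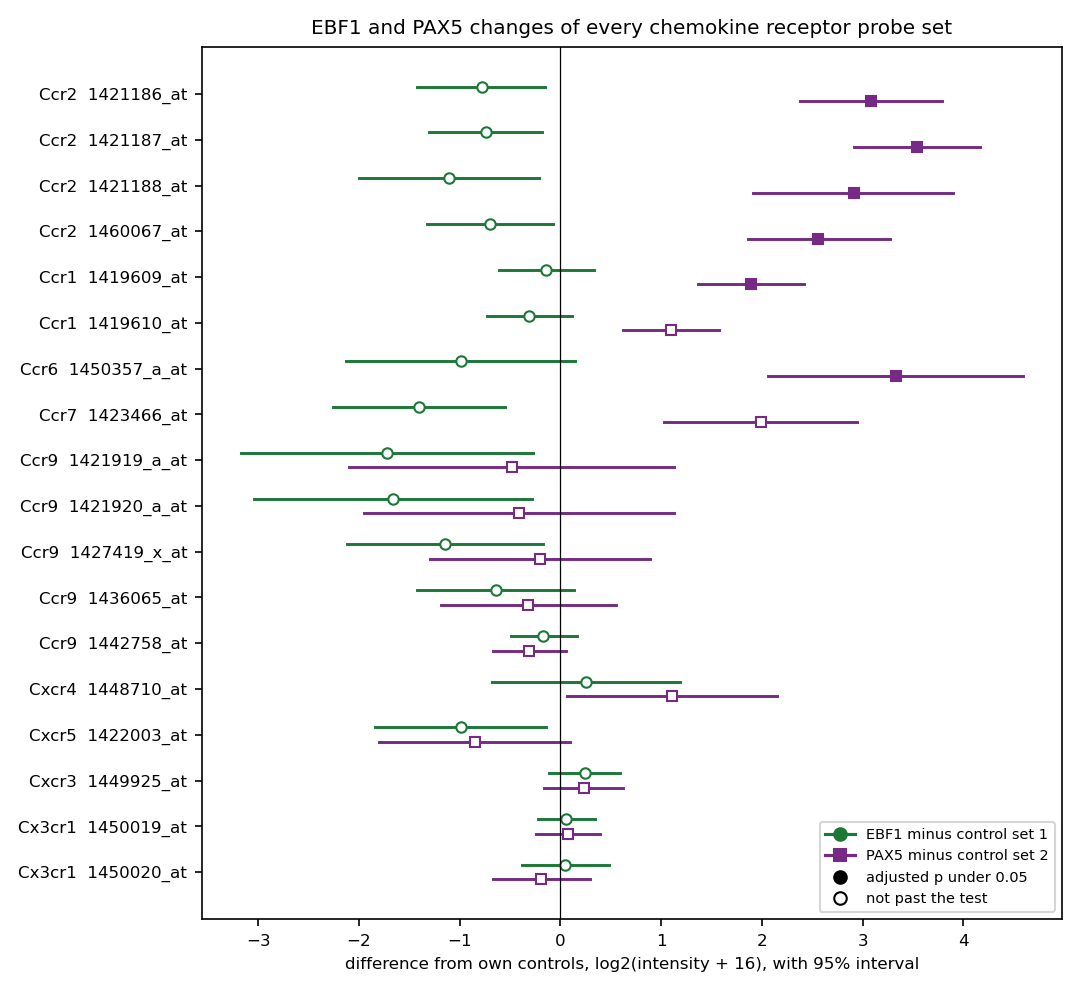
Change of each of the 18 receptor probe sets with EBF1 (circles) and PAX5 (squares) from the controls of its own set, in log2(intensity + 16) units with 95% intervals; filled symbols passed the adjusted threshold. The 6 filled symbols are the PAX5 changes of Ccr2, Ccr1 and Ccr6, from 1.89 to 3.54.

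Ccr7 had the lowest p with EBF1. It read 186, 292 and 117 in the first-set controls and 30.4, 80.4 and 83.8 with EBF1, so every EBF1 array lay below every control. The change was -1.40 (SE 0.37, 95% interval -2.26 to -0.55, unadjusted p = 0.0048, limma adjusted p = 0.25).

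Cxcr5 guides B cells toward Cxcl13 in follicles. It read 540.1, 221 and 195 in the first-set controls and 161, 84.2 and 183 with EBF1 (-0.99, SE 0.37, limma adjusted p = 0.43). In the second set it read 580.0, 238 and 226 in controls and 166, 174 and 168 with PAX5 (-0.85, SE 0.42, adjusted p = 0.64). It was the only one of the 9 genes whose arrays lay below their controls without overlap on all of its probe sets with both viruses. Control 1 read more than the other controls in both sets, and the EBF1 and PAX5 changes differed by -0.14, with a 95% interval of -1.09 to 0.81.

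Ccr2 read 299, 359 and 228 on 1421186_at in the first-set controls and 116, 151 and 239.7 with EBF1, where array 3 reached into the control range. Its 4 probe sets changed by -1.11 to -0.70 (limma adjusted p from 0.36 to 0.45). Ccr6 read 189, 81 and 130 in those controls and 54.2, 21.1 and 125 with EBF1, a change of -0.99 (SE 0.50, adjusted p = 0.56). For both genes EBF1 array 3 was the highest of its group.

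Ccr9, the receptor for the thymic and intestinal chemokine Ccl25, was the receptor whose EBF1 comparison turned on array 3. On 1421920_a_at it read 2925, 1292 and 3218 in the first-set controls and 411, 422 and 2094 with EBF1. Arrays 1 and 2 were well below all controls and array 3 lay inside their range. The change was -1.66 (SE 0.61, 95% interval -3.04 to -0.28, limma adjusted p = 0.41). The probe sets 1421919_a_at (-1.72, SE 0.64) and 1427419_x_at (-1.15, SE 0.43) behaved alike, and the dimmer 1436065_at and 1442758_at changed by -0.64 and -0.17. Without EBF1 array 3, 2 of the 5 passed: 1421920_a_at at -2.42 (SE 0.37, adjusted p = 0.025) and 1427419_x_at at -1.71 (SE 0.22, adjusted p = 0.012). That array also held the highest stromal and the lowest early B-lineage marker sum of its group, and the part of either in the Ccr9 values was not tested.

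**Figure D3:**
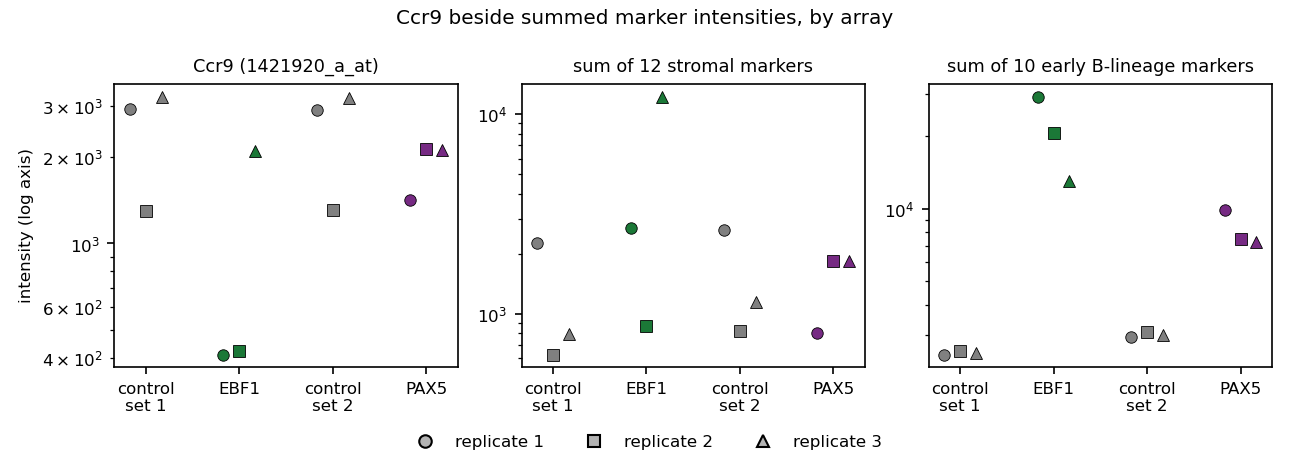
Intensity (log axis) by array of Ccr9 on 1421920_a_at, of the sum over 12 stromal markers and of the sum over 10 early B-lineage markers; symbols mark the replicate number. EBF1 array 3 has the highest Ccr9 and stromal values (2094 and 12151) and the lowest B-lineage sum (12986) among the EBF1 arrays.

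With PAX5, no Ccr9 probe set passed. On 1421920_a_at it read 2920.1, 1307 and 3214 in the second-set controls and 1415, 2125 and 2116 with PAX5 (-0.41, SE 0.68, limma adjusted p = 0.94). Control 2 read less than the other controls on 4 of its 5 probe sets in each set. On the dim 1442758_at all PAX5 arrays (112, 79.5 and 82.2) lay below all controls (114, 116 and 137). For 1421920_a_at the wide control range leaves a 95% interval of -1.95 to 1.13, so sizeable changes either way were not detectable with these samples.

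Cxcr3 and Cx3cr1 showed no change past the test with either virus. Cxcr3, the receptor for the interferon-induced chemokines Cxcl9, Cxcl10 and Cxcl11, read 105 to 131 over all control arrays, 111 to 161 with EBF1 and 128 to 164 with PAX5. Its changes were 0.24 (95% interval -0.11 to 0.59) and 0.23 (-0.16 to 0.62). Cx3cr1, the fractalkine receptor, read 28.8 to 44 on 1450019_at over all 12 arrays, at 0.06 with EBF1 (-0.22 to 0.34) and 0.08 with PAX5 (-0.24 to 0.39). On 1450020_at its changes were 0.05 and -0.19. Cxcr4 read 589.9, 219 and 680.2 in the first-set controls and 789, 448 and 434 with EBF1 (0.25, SE 0.41, limma adjusted p = 0.90).

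The responses to the viruses differed for 4 of the receptors. The EBF1 change minus the PAX5 change, in which the shared control samples cancel, was below 0 and past the threshold for 8 probe sets of Ccr1, Ccr2, Ccr6 and Ccr7; 0.77% of all probe sets were called lower in this contrast. For Ccr6 it was -4.32 (SE 0.56, 95% interval -5.59 to -3.05, limma adjusted p = 0.011). For Ccr2 it ran from -4.27 (SE 0.28, adjusted p = 0.00025) to -3.26 (SE 0.31, adjusted p = 0.0022). For Ccr7, which had passed with neither virus, it was -3.39 (SE 0.42, 95% interval -4.34 to -2.44, adjusted p = 0.0085). Ccr1 gave -2.03 (adjusted p = 0.0055) and -1.40 (adjusted p = 0.022). Without PAX5 array 1 the calls of Ccr1, Ccr6 and Ccr7 were lost and 3 of the 4 Ccr2 calls held. For Ccr9 the difference was -1.25 on 1421920_a_at (95% interval -2.79 to 0.29) and for Cxcr4 -0.85 (-1.90 to 0.19); neither passed.

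Ccr9, Ccr1 and Ccr2 lie on chromosome 9 in a stretch of 10 protein-coding genes from Slc6a20a to Ccr2, all 10 with a named probe set. In gene order the PAX5 changes of the brightest probe sets were 0.27 (Slc6a20a), 0.04 (Lztfl1), -0.20 (Ccr9), -0.34 (Fyco1), 0.07 (Cxcr6), 0.00 (Xcr1), 1.89 (Ccr1), -0.03 (Ccr1l1), -0.09 (Ccr3) and 3.08 (Ccr2). Ccr1 and Ccr2 passed and the receptor genes between them, Ccr1l1 and Ccr3, did not (adjusted p = 1 and 0.97). With EBF1 none of the 10 passed, and the lowest values belonged to the neighbours Ccr9 (-1.15) and Lztfl1 (-0.95, SE 0.25, limma adjusted p = 0.24). Lztfl1, which controls protein traffic to cilia, read 5543, 3971 and 4777 in the first-set controls and 1889.5, 2066 and 3695 with EBF1, with array 3 again highest. The rest of the receptors map elsewhere: Cxcr5 and Cx3cr1 on other parts of chromosome 9, Cxcr4 on 1, Ccr7 on 11, Ccr6 on 17 and Cxcr3 on X.

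**Figure D4:**
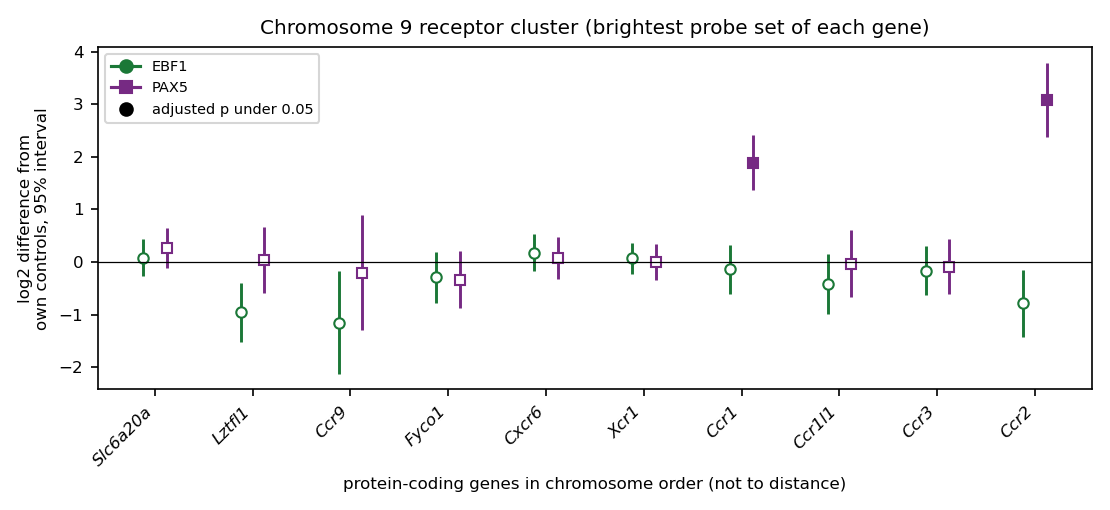
Change with EBF1 (circles) and PAX5 (squares) of the brightest probe set of each gene of the chromosome 9 stretch, in gene order and not to distance, in log2(intensity + 16) units with 95% intervals; filled symbols passed. Ccr1 (1.89) and Ccr2 (3.08) are the filled symbols, with Ccr1l1 and Ccr3 near 0 between them.

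Ligands were measured in the same cells. Of 36 chemokine genes 34 had a probe set, and 0 passed limma's adjusted threshold with EBF1 or PAX5. With EBF1, 6 of 52 probe sets had an unadjusted p under 0.05. At that unadjusted level, 5.53% of all probe sets were higher and 4.44% lower with EBF1. No such share is given here for PAX5 or for the difference, so unadjusted counts of the gene lists are given for EBF1 only. Ccl3, a ligand of Ccr1, read 3542, 1469 and 2620.4 in the first-set controls and 409, 292 and 1322 with EBF1 (-2.10, SE 0.51, adjusted p = 0.21). Ccl9, also a Ccr1 ligand, went the opposite way in value, from 549, 116 and 275 to 2688, 1348 and 688 (2.30, SE 0.56, adjusted p = 0.21). With PAX5 Ccl3 read 4193, 3928 and 3913 against 3502, 1484 and 2631 (0.76) and Ccl9 244, 259 and 256 against 587, 137 and 328 (-0.25).

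Ccl6 was the only ligand whose responses to the viruses differed past the test, at -1.79 on 1417266_at (SE 0.30, limma adjusted p = 0.035, lost in 6 of 15 alternatives). It read 132, 106 and 105 with PAX5 against 42.8, 16.3 and 28.4 in controls, and 37.7, 54.9 and 18.9 with EBF1 against 57.3, 34.3 and 36.1. The other probe set of Ccl6, 1420249_s_at, was not called. Cxcl12, the stromal ligand of Cxcr4, did not separate the groups: it read 3366 on EBF1 array 3 against 143 and 134 on arrays 1 and 2, and 14.1 on PAX5 array 1 against 559.9 and 551. Cxcl1, the remaining ligand among the brightest, changed by -0.08 and 0.05. Ccl25, the ligand of Ccr9, read 46 to 125 over both of its probe sets and all 12 arrays.

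The other 15 measured chemokine receptors, among them Ccr3, Ccr4, Cxcr2, Cxcr6 and the scavenging receptors, held 0 calls in either comparison, with medians of 0.07 and -0.03. With EBF1, 1 of 21 probe sets had an unadjusted p under 0.05, beside 5.53% of all probe sets higher and 4.44% lower. The 4 brightest of them by mean log2 level over all arrays, Ackr1, Ccrl2, Ackr2 and Ackr4, changed by -0.14 to 0.16 with EBF1 and by -0.50 to 0.29 with PAX5. Control arrays read 2.99 (Ackr2) and 1.45 (Ccrl2) log2 units higher in the second set than in the first. Ackr2 read only 3.11 to 16.45 over the first-set arrays, so its EBF1 change is that of a very dim signal. Cxcr1 had no probe set of its own.

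Genes that carry or end the receptors' signal did not pass with either virus: 0 of 43 measured genes were called. With EBF1, 18 of 112 probe sets had an unadjusted p under 0.05. With EBF1 the shares over all probe sets were 5.53% higher and 4.44% lower. Coro1a, Cdc42, Rap1a and Rac1, which act on the actin skeleton and adhesion and were the brightest, changed by -0.20 to -0.09 with EBF1 and 0.01 to 0.31 with PAX5. The responses differed for Grk3, a kinase that desensitises receptors, and for Pik3cg, the lipid kinase directly under G protein control. Grk3 read 44.5, 80.8 and 150.2 on 1434450_s_at with EBF1 against 253, 355 and 205, and 938, 509 and 570.3 with PAX5 against 263, 351 and 229. The difference was -2.81 (SE 0.41, limma adjusted p = 0.019), and for Pik3cg on 1422708_at it was -1.13 (SE 0.20, adjusted p = 0.037). These calls were lost in 3 of 16 and 8 of 15 alternatives. Grk3 also passed on 1440801_s_at (-2.68, limma adjusted p = 0.016, lost in 5 of 15). The difference was not called for Grk3 on 1439178_at or for Pik3cg on 1422707_at.

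Among 21 measured guidance receptors and adhesion molecules outside the chemokine family, Gpr183 and S1pr1 rose with PAX5 and 0 passed with EBF1. At an unadjusted p under 0.05 with EBF1 there were 13 of 39 probe sets, beside 5.53% of all probe sets higher and 4.44% lower. Gpr183, the oxysterol receptor that positions B cells at the follicle's edge, read 22.3, 1.5 and 12.1 in second-set controls on 1437356_at and 582, 310.0 and 315 with PAX5. The change was 4.06 (SE 0.32, limma adjusted p = 0.001), and on 1457691_at it was 1.08 (SE 0.17, adjusted p = 0.037). The first of these was lost only with a pseudocount of 1 (adjusted p = 0.055), and the second in 9 of 16 alternatives.

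S1pr1, the sphingosine 1-phosphate receptor that lets lymphocytes leave tissue, read 148, 99.1 and 131 in those controls and 367, 289 and 313 with PAX5 (1.31, SE 0.17, limma adjusted p = 0.015). With EBF1 it read 58, 73 and 62.8 against 127, 94.5 and 114 (-0.66, adjusted p = 0.19). Its call with PAX5 was lost in 5 of 19 alternatives. The difference between the viruses passed for Gpr183 (-4.31), S1pr1 (-1.97) and P2ry13 (-1.10), purinergic and lipid receptors that read higher with PAX5, and in the other direction for P2ry10 (1.18). The first 2 held in all alternatives, and those of P2ry13 and P2ry10 were lost in 9 and 10 of 17. The integrin gene Itga4 read 1917, 2899 and 3209.6 with EBF1 against 5672, 4549.7 and 5028 (-0.95, SE 0.21, adjusted p = 0.18), and Cd69, Selplg and Itgal changed by 0.24, -0.25 and -0.77.

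The genes whose brightest probe sets most resembled the called receptors over the 8 counted samples were found among about 8990 genes with a mean log2 level above 7. Ccr2 was closest to Lbh (Pearson's r = 0.994), Atrnl1 (0.99) and Srgap3 (0.985), Ccr1 to Dennd3 (0.989), Plxdc1 (0.988) and Map3k1 (0.988), and Ccr6 to Ppfia1 (0.992), Kbtbd11 (0.991) and Haus8 (0.989). The correlations are descriptions, since the samples share their arrays and 2 PAX5 samples stand against 6 others. Lbh, for example, read 2413, 1700.2 and 1814 with PAX5 against 695, 737 and 592.

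Markers of other cells that carry these receptors were read on the same arrays. For the unadjusted EBF1 counts of these lists, the shares over all probe sets were 5.53% higher and 4.44% lower. Of 10 measured monocyte and macrophage markers 0 passed with either virus (6 of 14 probe sets at an unadjusted p under 0.05 with EBF1). Their summed intensity was 1955 to 2682 in the second-set controls and 3806 to 5065 with PAX5, and 1215 to 2051 in the first-set controls and 1518 to 2523 with EBF1. The cathepsin gene Ctss made up most of the difference with PAX5, at 3158, 2209 and 2043 against 693, 1058 and 276, while Cd14 lay at or under the array median on every PAX5 array and Lyz2 changed by -0.15. Of 10 dendritic markers Itgax rose with PAX5, from 88.9, 79.1 and 42.8 to 259, 211 and 202 (1.56, SE 0.22, limma adjusted p = 0.023, lost in 4 of 19 alternatives), while Zbtb46, Clec10a, Xcr1, Batf3 and Cd209a lay at or under the median. The dendritic sum was 5877 to 6398 in second-set controls and 3978 to 4417 with PAX5. Its brightest genes were Flt3, which is also in the lymphoid progenitor list, and Bst2. Flt3 read 2870, 1822 and 2672 in those controls and 1328, 1178 and 1168 with PAX5. Bst2 read 1679, 2629 and 1659 against 1179, 1350 and 1266 with PAX5, and neither gene was called.

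Natural killer and innate lymphoid markers gave 0 limma calls of 9 genes with either virus. With EBF1, 6 of 14 probe sets had an unadjusted p under 0.05. The sums were 2468 to 3643 in first-set controls and 1019 to 2143 with EBF1, where array 3 was highest. In the second set they were 2637 to 3766 in controls and 2991 to 4045 with PAX5. Of 9 T-cell markers 0 passed, and 3 of 17 probe sets reached that unadjusted level with EBF1. T-cell markers summed to 588 to 777 in second-set controls and 817 to 1017 with PAX5. In the first set the sum was 461 to 708 in controls and 324 to 436 with EBF1. Cd3d, Cd3e, Cd3g, Cd4 and Cd8b1 lay at or under the median in all groups. Of 9 granulocyte markers 0 passed, and 2 probe sets reached that unadjusted level with EBF1. Granulocyte markers summed to 1040 to 2244 in second-set controls and 467 to 1086 with PAX5. In the first set the sum was 792 to 2041 in controls and 431 to 658 with EBF1. Of 12 stromal markers 0 passed, and 2 of 32 probe sets reached that unadjusted level with EBF1. Stromal markers summed to 822 to 2635 in second-set controls and 800 to 1847 with PAX5, and to 625 to 2264 in first-set controls. Lymphoid progenitor markers, which define the labelled cell type, summed to 14960 to 22937 over all control arrays and 16727 to 18994 over the transduced ones, with none of the 8 at or under the median in any group. Ly6d was called higher with EBF1 (4.17, limma adjusted p = 0.026), a call lost in 10 of 20 alternatives, among them the replicate block with each set alone (adjusted p = 0.22) and each removal of a control sample.

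In the EBF1 change minus the PAX5 change, 1 gene of each of 4 of these marker lists passed below 0, each on 1 probe set. Over all probe sets 0.77% were called lower in this contrast. The lists held 14 (monocyte and macrophage), 18 (dendritic), 17 (T cell) and 14 (natural killer) probe sets. Their medians were -0.09, -0.155, -0.041 and -0.253, beside 0.03 over all probe sets, so the passing genes do not stand for their lists. They were the integrin genes Itgam (monocyte and macrophage, -2.14, SE 0.33, limma adjusted p = 0.026) and Itgax (dendritic, -1.96, SE 0.22, adjusted p = 0.0055), Cd5 (T cell, -1.10, SE 0.19, adjusted p = 0.036) and the granule gene Nkg7 (natural killer, -2.81, SE 0.48, adjusted p = 0.036). Itgam read 18.4, 47.7 and 50.3 with EBF1 against 151, 164 and 84.7, and 276, 199 and 199.9 with PAX5 against 164, 170.3 and 97.9. Nkg7 read 102, 96 and 309 with EBF1 against 512, 389 and 240, and 1505, 911 and 865 with PAX5 against 514, 385 and 264. For both genes every PAX5 array lay above every control, and for Itgam every EBF1 array lay below. Without PAX5 array 1 all 4 calls were lost, and over 17 alternatives Itgax was lost in 1, Itgam in 4, Cd5 in 7 and Nkg7 in 9. No granulocyte or stromal marker passed in this contrast in limma. The part of these cells in the receptor values was not tested.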

How the data were processed

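The deposited table holds 1 intensity per probe set and array on a linear scale, as the authors made it. The summary of probes and the normalization are not given in the sources used here. Of each array 2.5% to 3.05% of probe sets are listed at exactly 1, and values near it have no order. Of 45037 probe sets 34945 carry 1 gene symbol in the platform annotation, 932 several and 9160 none, and 0 receptor probe sets carry several. Per-sample columns not used numbered 0.

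Analysis was on log2(intensity + 16), with no added normalization or filter. The test was limma 3.58.1 in R 4.3.3 (lmFit, eBayes), with Benjamini-Hochberg adjustment over all probe sets and a threshold of 0.05. In 1 fit, EBF1 was set against the first-set and PAX5 against the second-set controls. Control arrays of equal number in both sets were averaged after the probe-wise offset between the sets was removed, and PAX5 arrays 2 and 3 were averaged, which left 5 residual and 3.68 prior degrees of freedom. The fit was tested on simulated data in which 200 of 45037 probe sets changed with PAX5. It recovered 50% of log2 changes of size 1, 91% of size 2 and 98.5% of size 3. Of the simulated PAX5 calls 4.19% were false. A change near 1 can therefore go uncalled. Of the 18 receptor probe sets 15 had a mean log2 level of 6 or more.

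The receptors, gene lists, tests and alternatives were chosen with earlier results of these data known. Named outside the receptors are list genes past the threshold in either comparison, up to 4 bright genes of the receptor, ligand, signalling and guidance lists, and the 3 genes most like each called receptor. Ccl6, Grk3, Pik3cg, P2ry13, P2ry10, Ccl25, Lztfl1 and single markers were named after their values were seen.

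Replicate numbers are shared in the labels. Over 12889 bright probe sets the deviations of equal numbers correlated at 0.35, 0.61 and 0.39 for control and EBF1 arrays. This speaks for pairs, but the main fit had no term for the replicate number. Its EBF1 errors, intervals and p-values are unpaired, and the pairs entered only in the replicate-block alternatives. For control and PAX5 arrays the correlations were 0.41, 0.19 and 0.33. PAX5 arrays 2 and 3 look like 1 sample, so outside the replicate-block alternative equal numbers were not read as pairs there. Alternatives covered the pseudocount, normalization, dim probe sets, probe sets per gene, the counting of arrays, the replicate block, eBayes options and each array left out. Python 3.11.15 with pandas 2.3.3, numpy 2.4.6 and matplotlib 3.10.9 made the tables of names and sequences and the figures.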

Additional observations from a re-analysis of the deposited data

Results flagged for a closer look

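For 8 receptor probe sets the response to EBF1 differed from the response to PAX5 by limma's test of the difference itself, adjusted over all 45037 probe sets. The EBF1 change minus the PAX5 change was -3.87, -4.27, -4.01 and -3.26 for Ccr2 (1421186_at, 1421187_at, 1421188_at and 1460067_at; adjusted p from 0.00025 to 0.0046), -4.32 for Ccr6 (0.011), -3.39 for Ccr7 (0.0085), and -2.03 and -1.40 for Ccr1 (1419609_at and 1419610_at; 0.0055 and 0.022). In value, all 8 had an EBF1 change below 0 and a PAX5 change above 0, but no EBF1 change passed. For Ccr1 the EBF1 changes were small, at -0.14 on 1419609_at (adjusted p = 0.89) and -0.31 on 1419610_at (adjusted p = 0.64). The first of these turned sign in 2 of 19 alternatives. The PAX5 changes of Ccr7 (adjusted p = 0.12) and of Ccr1 on 1419610_at (adjusted p = 0.082) did not pass either. A lowering by EBF1 was therefore not shown for these probe sets. The removal of PAX5 array 1, after which 1 PAX5 sample remains and takes its variance from the other groups, left 3 of the 8 calls, all of Ccr2.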

How the results depend on the processing

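Across 20 alternatives, 933 recomputed receptor values kept direction and call in 874 cases, lost the call in 33, gained one in 6 and changed sign in 20; the cause was not tested. All that changed sign were uncalled. The Cx3cr1 difference on 1450019_at was 0.01 with 12 arrays counted separately, and the Cxcr3 difference was -0.03 there and -0.03 after quantile normalization. Leaving out 1 array in turn, these ran from -0.08 to 0.07 and from -0.13 to 0.14, and the Cxcr5 difference from -0.34 to 0.16. The EBF1 changes of Ccr1 (1419609_at, -0.28 to 0.06), Cx3cr1 (1450020_at, -0.08 to 0.20) and Cxcr4 (-0.23 to 0.55) and the PAX5 change of Cx3cr1 (1450019_at, -0.01 to 0.17) also crossed 0.

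The count of receptor probe sets called with PAX5 (6) was 2 with a pseudocount of 1, both of Ccr2, and 1 to 7 with an array left out (lowest without PAX5 array 1; 3 and 2 without controls 2 and 3). With 1 value per gene, the brightest or the mean, it was 3 of 9 genes, and the difference called 4 of 9. The EBF1 count (0) was 2 without EBF1 array 3 and 0 otherwise. The count for the difference (8) ran from 3 to 9 with an array left out.

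Over all probe sets, EBF1 calls (44) were 14 with a pseudocount of 64, 295 with 12 arrays counted separately, 18 with each set fitted alone, 90 with trend and robust eBayes, and 18 to 597 with an array left out, highest without EBF1 array 3. PAX5 calls (232) were 96 with a pseudocount of 1, 153 with gene means, 638 with 12 arrays separately, 122 with each set alone and 50 to 263 with an array left out. Calls for the difference (473) were 226, 208 and 745 with a pseudocount of 1, 12 arrays separately and trend and robust eBayes, and 78 to 874 with an array left out, lowest without PAX5 array 1. Calls among the other lists (14) were 9 with a pseudocount of 1, 28 with 12 arrays separately, 9 with each set alone and 9 to 36 with an array left out.

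With the replicate number as a block, EBF1 calls over all probe sets were 7 with each set alone and 67 in the joint fit, and PAX5 calls 257. The fit with each set alone used 6 arrays, so the near-identical PAX5 arrays counted there as separate samples, paired by number. The block changed no call of a receptor. For PAX5 this does not test the main calls, since that fit counted alike arrays apart. Among the other named genes, the block with each set alone ended the EBF1 calls of Cd79a, Cd79b and Ly6d (adjusted p = 0.22, 0.088 and 0.22) and the PAX5 call of Gpr183 on 1457691_at (0.083), and no other call. The PAX5 change under the joint block, and the difference with each set alone, could not be fitted. Dim probe sets, such as Ccr1 on 1419610_at, are limited by their low signal, and 2 counted PAX5 samples limit the rest.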
